A study of Mus musculus with 4 samples.

Results

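The neuronal calcium sensor genes described here are Vsnl1, Ncs1, Hpca, Hpcal1, Hpcal4, Necab1, Necab2, Necab3, Calb1 and Calb2, 10 of the 22180 genes tested on microarrays of mouse pancreatic islets. They were chosen by name from a list written with results of these arrays in view, since Vsnl1 and Necab2 already stood among the genes that were lower in transgenic islets. The values of those 2 genes are therefore a description and carry no test. Each gene was read from a probeset, the group of array probes that together measure a transcript, which the platform annotation paired with that gene symbol alone, the brightest one to be used where there were several. Each of the 10 genes had 1 such probeset, so brightness decided nothing.

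The islets came from 41 Tg mice, which carry a transgene for GPR41, a receptor for short-chain fatty acids whose mouse gene is Ffar3, and from WT littermates. All were C57BL/6 mice aged 5 to 6 months, and islets of both groups were held in RPMI medium before their RNA was purified. Each group had 2 arrays, whose titles call them biological replicates without saying whether an array holds islets of 1 mouse or of several, so the spread between them may be partly technical. The promoter that drives the transgene, and the cells in which it is active, are not given in the sources used here.

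Calcium entering an islet beta cell through voltage-gated channels triggers the release of insulin granules, and EF-hand proteins are among the molecules that bind this calcium. Neuronal calcium sensor proteins in the strict sense are small EF-hand proteins with a fatty acyl group at the amino terminus, through which many of them move to membranes as calcium rises. Vsnl1, Ncs1, Hpca, Hpcal1 and Hpcal4 belong to this family, the Necab genes encode a separate EF-hand family, and Calb1 and Calb2 encode calcium buffers, so only 5 of the 10 are sensors of that family.

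Promoter sequences are shown for Vsnl1 and Necab2 because these genes had the largest differences of the 10 between the groups. They are RefSeq sequences of build GRCm38.p6, given 5′ to 3′ on the gene's strand, from 250 bases before the annotated start to 50 bases after it. The first of 2 Vsnl1 windows lies on the minus strand at chr12:11436529-11436828, and the Necab2 window on the plus strand at chr8:119446469-119446768. Capitals mark the letters GGGCGG or their reverse complement CCGCCC, a GC box, a motif that was chosen after the data were seen.
Vsnl1: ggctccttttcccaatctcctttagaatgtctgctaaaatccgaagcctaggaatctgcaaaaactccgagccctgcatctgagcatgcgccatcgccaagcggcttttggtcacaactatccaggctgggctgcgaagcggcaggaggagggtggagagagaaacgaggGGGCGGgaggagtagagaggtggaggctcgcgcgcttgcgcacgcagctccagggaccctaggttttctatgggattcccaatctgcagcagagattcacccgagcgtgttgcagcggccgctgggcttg
Necab2: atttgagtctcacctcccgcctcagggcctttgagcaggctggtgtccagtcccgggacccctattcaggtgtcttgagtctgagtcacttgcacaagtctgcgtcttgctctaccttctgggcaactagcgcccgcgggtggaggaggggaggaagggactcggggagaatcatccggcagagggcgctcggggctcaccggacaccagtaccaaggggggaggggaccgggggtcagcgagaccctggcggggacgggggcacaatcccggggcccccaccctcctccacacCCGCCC

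The cAMP response element TGACGTCA, and its first part TGACG, which it contains, were searched on both strands, since GPR41 is known to couple to the G proteins that lower cAMP. Neither was found in any of the 11 windows that the table holds for 7 of the 10 genes, against 1.8% of all 32851 windows with TGACGTCA and 20.8% with TGACG. The GC box occurred in 9 of the 11 windows, against 35.7% of all windows. The Vsnl1 window holds 1 GC box, which begins 80 bases before the start, and the Necab2 window holds 1 in the bases after the start. Windows of 1 gene overlap or lie close together, so they are not independent. The bases G and C made up 58.7% of the Vsnl1 window shown and 66.7% of that of Necab2. Over all windows the median was 52.7%, with quartiles of 45.7% and 61.7%. The Vsnl1 window shown lay between the quartiles, and that of Necab2 lay above them. The windows of Necab3 (66.0% in each), Ncs1 (76.0%) and Hpcal1 (68.3%) and the second Hpca window (74.0%) also lay above them. The first and last Hpca windows had 60.3% and 51.3%, and that of Hpcal4 had 61.7%. A GC box holds only G and C, and the part of base composition in its count was not tested. The second Vsnl1 window, which is not printed, had 44.3% and held no GC box. No window was given for Calb1, Calb2 or Necab1.

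Array signals were deposited as log2 values, so that a difference of 1 is a doubling of signal, and the median of each array's genes lay between 6.52 and 6.54. Across genes, which do not count as replicates, Pearson's r was 0.995 for the pair of 41 Tg arrays, 0.991 for the WT pair and 0.986 to 0.988 between the groups. Ffar3 was at 11.02 and 10.98 on the 41 Tg arrays, against 7.09 and 6.47 on the WT arrays. The hormone genes of islets were bright on every array, with Ins2 at 12.52 and 12.59 in 41 Tg and at 12.57 and 12.46 in WT, and Gcg, Sst, Ppy and Iapp between 12.87 and 13.79.

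Of the 10 genes, Vsnl1 had the largest difference, and its lower values in 41 Tg islets were known when the list was written. None of the other 4 genes of its family passed the test, and their contrast with Vsnl1 is a description. Vsnl1 encodes visinin-like protein 1, a sensor that moves to membranes when calcium rises. It was at 6.73 and 6.68 on the 41 Tg arrays, against 8.93 and 8.36 on the WT arrays. The 41 Tg arrays lay close together and well below both WT arrays, and the lower WT array exceeded the higher 41 Tg array by 1.63 log2 units, whereas the WT arrays differed from each other by 0.57. The fitted difference was -1.94 (SE 0.20), a 3.84-fold lower signal in 41 Tg islets. It was between -2.23 and -1.66 with each array left out in turn.

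Ncs1 encodes neuronal calcium sensor 1, which stimulates a phosphatidylinositol 4-kinase and has been tied to granule exocytosis. It was at 6.07 and 6.20 on the 41 Tg arrays, against 6.61 and 6.47 on the WT arrays. The groups did not overlap, but the difference of -0.41 (SE 0.12, 95% confidence interval -0.69 to -0.12) missed the threshold in the limma fit across all genes (adjusted p = 0.257). Hpcal1, which encodes a close relative of hippocalcin, was at 8.49 and 8.61 in 41 Tg islets and at 8.81 and 8.84 in WT islets. Its arrays also did not overlap, and its difference was -0.28 (SE 0.11, interval -0.54 to -0.01, limma adjusted p = 0.402).

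Hpca and Hpcal4 showed no separation of the groups. Hpca encodes hippocalcin, a sensor best known from hippocampal neurons, and it was at 5.50 and 5.25 in 41 Tg islets and at 5.14 and 5.36 in WT islets. Its difference was 0.12 (SE 0.14, interval -0.23 to 0.47, limma adjusted p = 0.818). Hpcal4 was at 4.86 and 4.86 in 41 Tg islets and at 4.71 and 4.89 in WT islets, with a difference of 0.06 (SE 0.11, interval -0.22 to 0.34, limma adjusted p = 0.907). The Hpcal4 values lay below the first quartile of the genes of each array, 4.92 to 4.97, where a difference in transcript may be compressed. Both intervals reach above and below 0, so neither a small increase nor a small decrease can be told apart from no change at this number of arrays.

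**Figure D1:**
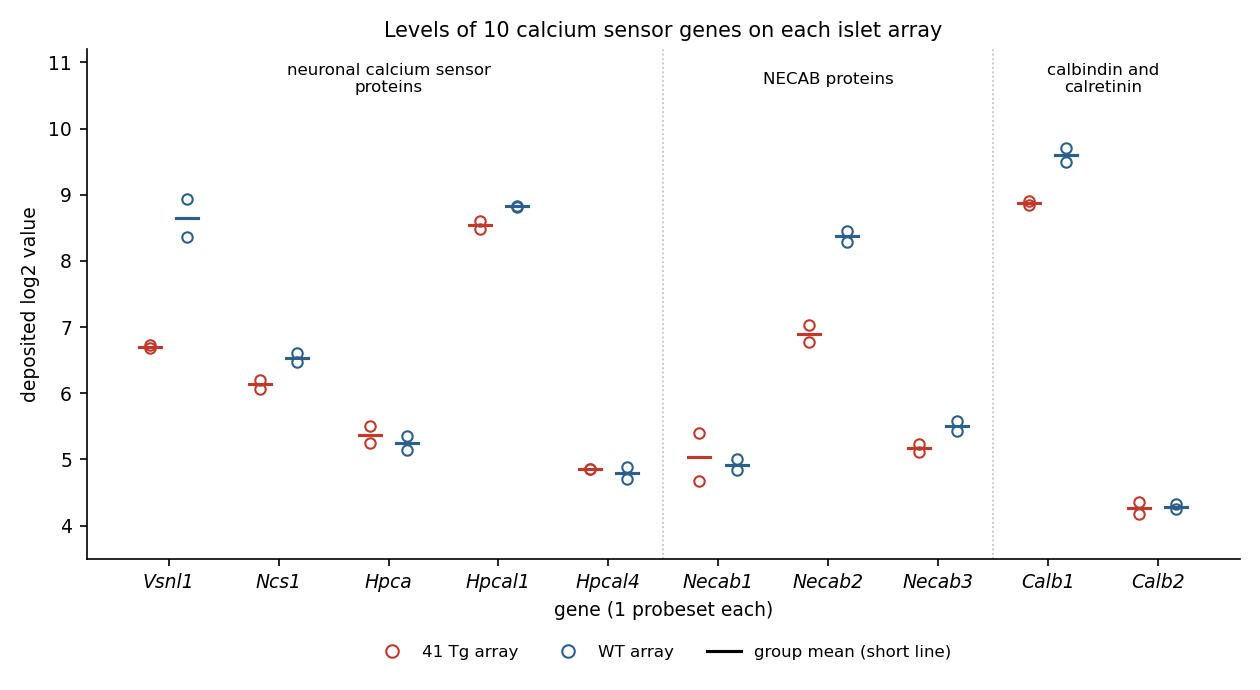
Deposited log2 value (vertical axis) of each of the 10 genes on the 41 Tg arrays (red circles, 2 a gene) and the WT arrays (blue circles, 2 a gene), with the group mean as a short line and the genes grouped by protein family. Vsnl1, with 41 Tg values of 6.73 and 6.68 and WT values of 8.93 and 8.36, and Necab2 show the widest separation, and Hpca, Hpcal4, Necab1 and Calb2 overlap between the groups.

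Of the Necab genes, Necab2 was lower in 41 Tg islets, as was known when the list was written. Necab1 and Necab3 did not pass the test, and their contrast with Necab2 is a description. Necab2 encodes a neuronal EF-hand protein reported to bind an adenosine receptor and a metabotropic glutamate receptor. It was at 6.77 and 7.03 on the 41 Tg arrays, against 8.46 and 8.28 on the WT arrays. The groups stood 1.25 log2 units apart at their nearest arrays, against gaps of 0.26 within 41 Tg and 0.18 within WT. The difference was -1.47 (SE 0.14), which is 2.77-fold lower in 41 Tg islets, and it was between -1.60 and -1.34 with each array left out.

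Necab3, whose protein binds the neuronal adaptor protein encoded by Apba2, was at 5.24 and 5.11 in 41 Tg islets and at 5.58 and 5.44 in WT islets. The groups did not overlap, and the difference of -0.33 (SE 0.11, interval -0.62 to -0.05) had a limma adjusted p of 0.351. Necab1 was at 5.40 and 4.67 in 41 Tg islets, against 4.84 and 5.01 in WT islets. Both WT arrays lay between the 41 Tg arrays, and the 41 Tg arrays differed by 0.73, the widest gap within a group among the 10 genes. The Necab1 difference of 0.11 (SE 0.24, interval -0.49 to 0.72, limma adjusted p = 0.921) was therefore the least precise of the set, and it was -0.25 without 41 Tg replicate 1.

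Of the buffer genes, Calb1 had lower values in 41 Tg islets without passing the test, and Calb2 did not separate the groups. Calb1 encodes calbindin-D28k, a buffer also made by rodent beta cells, and it was at 8.90 and 8.84 in 41 Tg islets, against 9.71 and 9.50 in WT islets. Both 41 Tg arrays were lower than both WT arrays, by 0.59 at the nearest, and the difference of -0.73 (SE 0.12, interval -1.03 to -0.44) corresponds to a 1.66-fold lower signal. It missed the threshold in the limma fit (adjusted p = 0.073). The adjusted p was 0.026 to 0.530 over 13 alternatives, of which 3 put it under the threshold. These were the fit limited to genes above the median level (0.046), a variance that follows the level (0.041), and the same with a robust prior (0.026).

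Calb2, the gene of calretinin, was at 4.36 and 4.18 in 41 Tg islets and at 4.32 and 4.25 in WT islets. Both groups lay below the first quartile of the genes of every array, and they overlapped. The difference was -0.02 (SE 0.11, interval -0.30 to 0.27, limma adjusted p = 0.980).

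**Figure D2:**
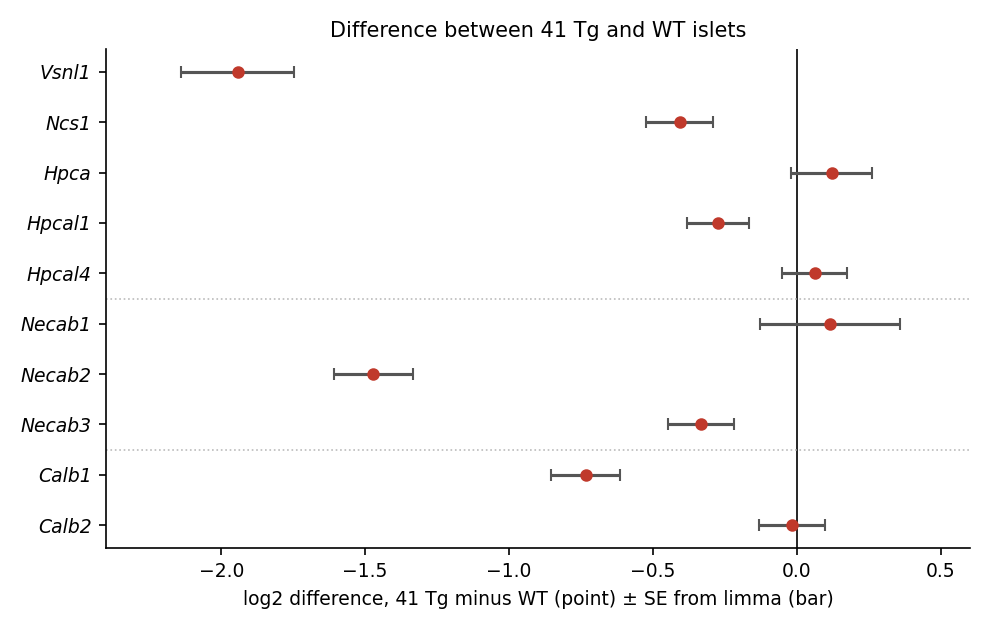
Fitted log2 difference, 41 Tg minus WT (horizontal axis, points), with its limma standard error (bars) for the 10 genes, grouped by protein family from top to bottom. Vsnl1 (-1.94) and Necab2 (-1.47) lie farthest to the left, followed by Calb1 (-0.73), while Hpca, Hpcal4, Necab1 and Calb2 have bars that cross 0.

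Across the set, 7 of the 10 genes were lower in 41 Tg islets and 3 were higher, with a median difference of -0.30, against a median of -0.02 over all tested genes. In 6 of the 10, both 41 Tg arrays were lower than both WT arrays, a pattern shown by 23.7% of all genes, and in 0 of the 10 both were higher, against 18.6% of all genes. The limma fit called Vsnl1 and Necab2, both lower, at an adjusted p under 0.05, and 0.897% of all genes were called, 0.225% lower and 0.672% higher. Because the calls of Vsnl1 and Necab2 came before the list, nothing is read from these counts. With 2 arrays a group, the smallest two-sided p of an exact permutation test is 0.333, so each call rests on limma's pooled estimate of the spread. The call of Vsnl1 was lost without 41 Tg replicate 1 (difference -1.97) and without 41 Tg replicate 2 (-1.92). That of Necab2 was lost without 41 Tg replicate 1 (-1.34), 41 Tg replicate 2 (-1.60) and WT replicate 1 (-1.38). Both calls were also lost without variance moderation and with the replicate number as a block, where the differences remain -1.94 and -1.47.

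**Figure D3:**
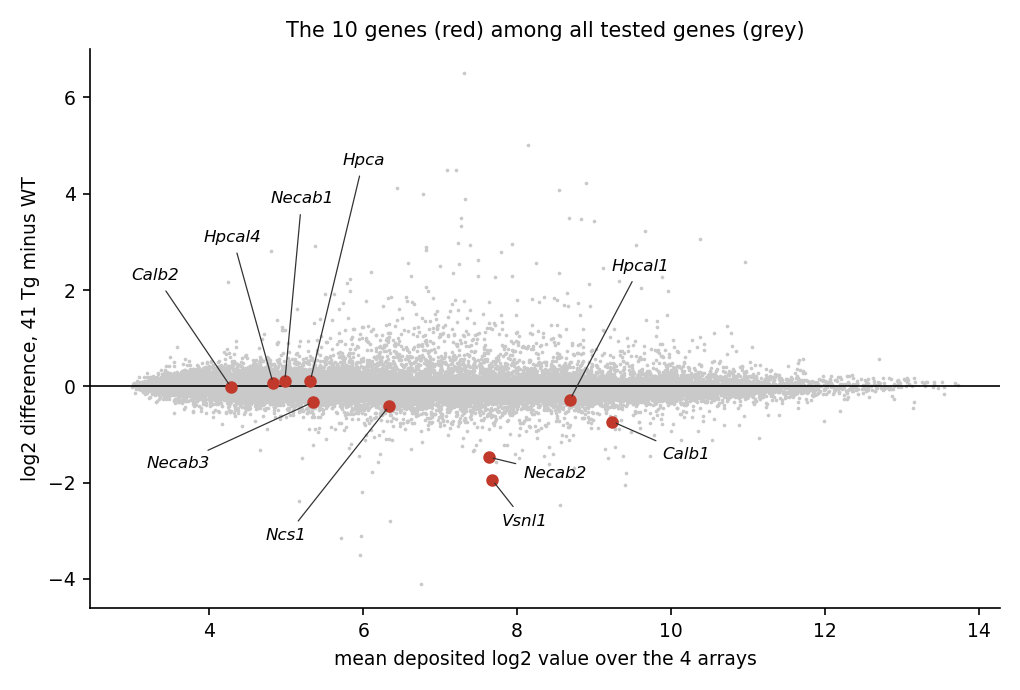
Log2 difference, 41 Tg minus WT (vertical axis), against the mean log2 value over the 4 arrays (horizontal axis) for the 22180 tested genes (grey) and the 10 calcium sensor genes (red, named). Vsnl1 and Necab2 lie below the bulk of genes at their level, and Hpca, Hpcal4, Necab1 and Calb2 lie within it at low values.

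The genes of 4 further lists did not pass the test. The lists hold further family members, other EF-hand proteins, genes of calmodulin-dependent signalling, and reported partners of the 10. Of 85 symbols in these lists, 75 had a single-gene probeset, and limma called 0 of these higher and 0 lower in 41 Tg islets. An unadjusted limma p under 0.05 was found for 12 of the 75, against 2627 of all 22180 genes, or 11.8%. In all, 30 of the 75 were higher and 45 lower, with a median difference of -0.04. Over all tested genes 10146 were higher and 12034 lower, with a median of -0.02.

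The list of the calcium sensor family held 7 further genes and may not cover the whole family. Each of the 7 was measured, and 4 were lower. Kcnip3, which encodes both a subunit of potassium channels and the transcriptional repressor DREAM, had the smallest p of these. It was at 6.96 and 7.16 in 41 Tg islets, against 7.63 and 7.33 in WT islets, groups that did not overlap (difference -0.43, SE 0.14, limma adjusted p = 0.347). Guca1b, an activator of retinal guanylate cyclase, had a difference of 0.17, and Kcnip4 and Kcnip2, which encode further potassium channel subunits, had differences of -0.20 and 0.05.

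Among 29 other EF-hand genes, 16 were lower and 13 higher. Rcn1, which encodes a calcium-binding protein of the endoplasmic reticulum, was at 8.44 and 8.58 in 41 Tg islets and at 9.26 and 9.09 in WT islets. Its difference of -0.66 (SE 0.12) had a limma adjusted p of 0.095. The buffer gene Pvalb had a difference of 0.51, the calcineurin B-like gene Chp2 one of 0.45, and the calmodulin-like gene Cabp1 one of -0.31. Scgn, whose protein secretagogin is a close relative of calbindin and abundant in islets, is named outside the rule for that kinship, after its values were seen. It was at 12.33 and 12.27 in 41 Tg islets and at 12.28 and 11.92 in WT islets, groups that overlapped, with a difference of 0.20 (SE 0.15, interval -0.17 to 0.56).

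Of 23 genes of calmodulin-dependent signalling, among them kinase, calcineurin and NFAT genes, 16 were lower and 7 higher. The differences lay between -0.36 and 0.42. The kinase gene Camk4 had a difference of 0.42, and that of the transcription factor gene Nfatc2 was -0.35. Camk1d, another kinase of the family, had a difference of -0.36 and Dapk1, a calmodulin-regulated death kinase, one of 0.15. Of 16 genes for proteins reported to bind the 10 or to be regulated by them, 9 were lower and 7 higher. Itpr3, a calcium release channel of the endoplasmic reticulum, was at 8.38 and 8.11 in 41 Tg islets, against 8.98 and 9.21 in WT islets. This was the largest difference of the 4 lists, at -0.85 (SE 0.15), and its limma adjusted p was 0.084. The related channel gene Itpr2 (-0.52), the synaptotagmin gene Syt1 (-0.52) and the natriuretic peptide receptor gene Npr2 (-0.50) did not pass either.

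**Figure D4:**
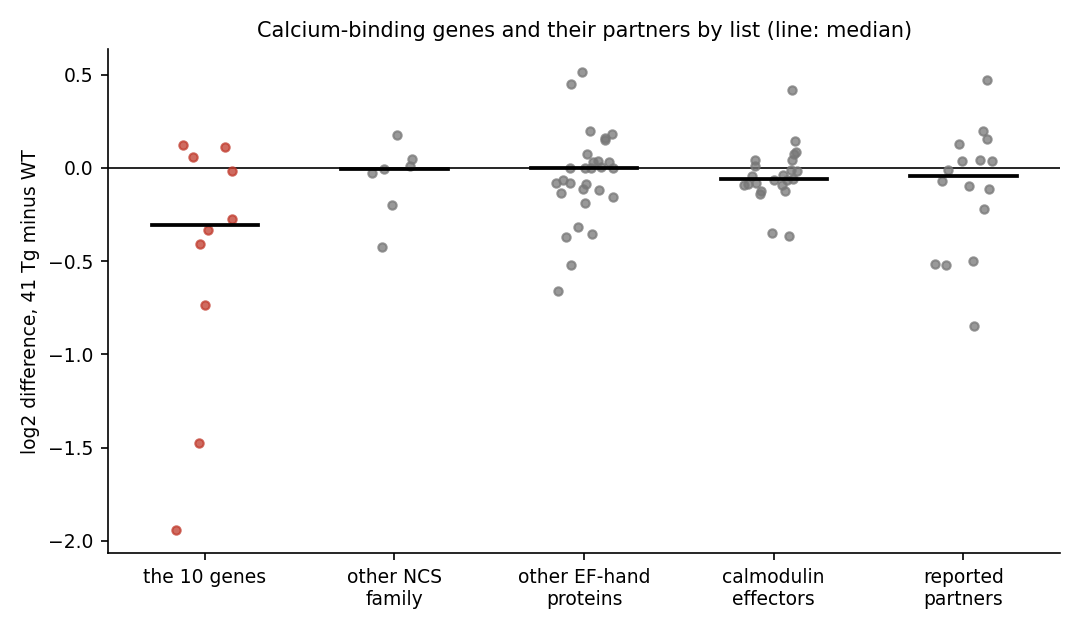
Log2 difference, 41 Tg minus WT (vertical axis), of the 10 genes (red) and of the measured genes of the 4 further lists (grey), with each list's median as a line. The medians are -0.30 for the 10 genes and between -0.06 and -0.0014 for the other lists, whose lowest value is that of Itpr3 (-0.85).

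Markers of the cells that an islet preparation can hold also varied between the arrays. The 4 measured alpha cell markers, Gcg, Irx1, Irx2 and Ttr, were all lower, and their mean was 9.84 and 10.21 in 41 Tg islets, against 10.67 and 10.44 in WT islets. Delta cell markers were lower for 5 of 6 (means 8.37 and 8.17 in 41 Tg, 8.71 and 8.38 in WT). Of 13 beta cell and hormone genes 9 were lower, with means of 11.81 and 11.85 in 41 Tg and 12.03 and 11.86 in WT. PP cell markers were lower for 2 of 4, with means of 10.10 and 10.08 in 41 Tg and 10.40 and 10.25 in WT, and the gene that differed most was Etv1 (-0.94). No gene of these 4 lists was called.

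Neuron markers, relevant because the 10 genes are best known from neurons, were lower for 6 of 16, and their means of 6.45 and 6.54 in 41 Tg overlapped those of 6.54 and 6.48 in WT. Of that list 1 gene, Nefl, named for this position and not by its p, lay below the first quartile on all 4 arrays. Immune markers were higher in 41 Tg islets for 13 of 13, with means of 8.27 and 7.98 against 7.38 and 7.15 in WT islets, and limma called 1, Coro1a. Endothelial markers were higher for 10 of 10 (means 8.58 and 8.28 in 41 Tg, 8.07 and 7.89 in WT), and mesenchymal markers for 9 of 9 (7.18 and 7.07 in 41 Tg, 6.68 and 6.82 in WT). Acinar means were 11.24 and 10.95 in 41 Tg and 10.63 and 11.66 in WT, so that the lowest and the highest mean were both of WT arrays. Duct cell markers were lower for 4 of 5, with means of 7.63 and 7.49 in 41 Tg and 6.78 and 7.77 in WT, and limma called the fifth, Cftr, higher (difference 2.30). Schwann cell markers were higher for 3 of 6, with means of 5.46 and 5.44 in 41 Tg and 5.30 and 5.22 in WT, and none was called, with Ngfr at a difference of 1.23. Etv1, Coro1a, Cftr and Ngfr are named after their values were seen. The part of these cell types in the values of the 10 genes was not tested, and in RNA from whole islets fewer cells of a type and less RNA per cell cannot be told apart.

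Genes whose values followed those of Vsnl1 and Necab2 most closely were found by the distance between the 4 log2 values, after each gene's own mean was subtracted. The search covered the 10597 genes above the median level whose symbols are not those of predicted or unnamed genes. A smaller distance means a more similar pattern, and with 4 arrays in 2 groups it mainly reflects the size of the group difference, which is given as a description. Nearest to Vsnl1 was Jam2, a junctional adhesion molecule, at 8.05 and 7.72 in 41 Tg islets and at 9.83 and 9.33 in WT islets (distance 0.32). It was followed by the tyrosine aminotransferase gene Tat (0.33), the zinc finger gene Zim1 (0.51), Taar1, of the trace amine receptors (0.55), and the proteoglycan gene Spock1 (0.56). Necab2 itself lay at a distance of 0.59 from Vsnl1.

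Nearest to Necab2 was Pappa2, a protease that cleaves IGF-binding proteins, at a distance of 0.06. It was at 8.53 and 8.79 in 41 Tg islets, against 10.15 and 10.05 in WT islets, and so shared with Necab2 the order of all 4 arrays. The sulfotransferase gene Ust (0.17), Taar1 (0.18), Spock1 (0.23) and the matrix link protein gene Hapln1 (0.24) came next. Taar1 and Spock1 were among the 5 nearest genes of both.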

How the data were processed

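RNA of 41 Tg and WT islets was hybridised to Affymetrix Mouse Gene 2.0 ST arrays. The deposited values run between 2.87 and 13.89 and were therefore taken as log2 intensities. Partek and RMA (background correction, normalisation between arrays and summary of probes) stand in the submitters' processing notes, with no versions. The genome build of the probesets is not given in these sources. Of 27037 probesets, the platform annotation paired 23521 with 1 gene symbol, 1814 with several and 1702 with none, and the brightest single-gene probeset stood for each of 22180 genes. Groups came from the sample titles, and no dim gene was removed.

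Differences are 41 Tg minus WT, fitted in limma 3.58.1 (R 4.3.3) by lmFit with moderated variances from eBayes. P-values were adjusted by Benjamini-Hochberg over all genes, with a threshold of 0.05. The fit had 2 residual and 3.76 prior degrees of freedom and was tested on simulated data. Those data were drawn from the fit's own variance prior, so they cannot show whether that prior suits these arrays. Confidence intervals of 95% are not adjusted for the number of genes, and the number of arrays limits the precision. The members and lists were chosen with earlier results of these data known. The text names all members, up to 4 genes of smallest p from each further list, and the 5 nearest genes of Vsnl1 and of Necab2, and it says where a gene is named outside this rule. Older symbols were matched through the RefSeq gene table of GRCm38.p6, and 180 of 208 list entries had a single-gene probeset. Probe sequences were not used here, so cross-hybridisation between related genes was not tested. Alternatives were other ways of joining probesets, a level filter, normalisation, centring, other variance priors, no moderation, the replicate number as a block, and each array left out.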

Additional observations from a re-analysis of the deposited data

How the results depend on the processing

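All alternatives were planned. Vsnl1 and Necab2 were lower in 41 Tg islets under all 13, with differences between -2.23 and -1.66 and between -1.60 and -1.34. Leaving out 1 array could not change this sign, since both 41 Tg arrays lay below both WT arrays. Settings that alter only the variance leave the difference as it is, so nothing is read from the constant sign. The main setting called 2 of the 10 genes. The mean of probesets, single probesets, repeated quantile normalisation and centring called the same 2 genes, and the level filter (4 of the 10 genes left) and both variance trends added Calb1. The count was 0 without moderation, where no gene of the array was called, 0 with the replicate block, and between 0 and 2 when 1 array was omitted, which takes the group's single remaining array to vary as the others do. The labels do not say what a replicate number shares, and deviations of same-numbered arrays correlated at -0.063 across genes. The 75 genes of the 4 further lists had 2 calls with a variance trend and robust prior (Itpr3 and Rcn1). They had 0 in the other settings that kept all 4 arrays. Over all genes, 199 calls became 347 with that prior, 24 with the block, 0 without moderation and 38 to 135 with an array left out. When 1 array was omitted, 4 small differences changed sign, between -0.25 and 0.48 for Necab1, -0.0059 and 0.25 for Hpca, -0.0281 and 0.15 for Hpcal4, and -0.11 and 0.0706 for Calb2. The cause was not tested. Hpcal4 and Calb2 lie so low that signal near background limits what a difference can show. Necab1 also lay below the first quartile on 41 Tg replicate 2 (4.67) and WT replicate 1 (4.84), though not on the other arrays.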
